A study of Mus musculus with 230 samples.

Results

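Sarm1 and 8 further genes that set NAD supply or relay axon damage were followed in sensory neurons of the mouse dorsal root ganglion (DRG), the cells whose axons run in the sciatic nerve. The 9 genes were taken by name from a table of 53278 endogenous features: Sarm1, Nmnat1, Nmnat2, Nmnat3, Nampt, Nmrk1, Map3k12, Map3k13 and Mycbp2. All animals were C57BL/6 X CAST/Ei crosses, and the groups differed by condition (sciatic nerve injury or intact) and by age. Neurons were picked by hand from dissociated L4 and L5 ganglia and sequenced either as low-input libraries, 3 for each of intact and injured at 1, 8 and 12 months, or as single cells. The single cells were 18 intact and 21 injured at 1 month and 8 intact and 22 injured at 1 year, 1 of the latter with no counts. Per the protocol in the labels, the nucleus of a cell went to bisulfite sequencing and the remaining cytoplasm to RNA sequencing by SMART-seq2, so single-cell values are of cytoplasmic RNA. The time between injury and collection, the sex and the number of animals are not given in the labels. Before the library or cell number, all intact names carry l or L and all injured names r or R. Condition therefore cannot be told apart from whatever else that letter marks.

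NAD is the cofactor whose loss destroys a cut axon. SARM1 is an enzyme that, once active, breaks NAD down and drives axon degeneration, and NMNAT2, a short-lived enzyme carried from the cell body into the axon, makes NAD from its precursor NMN and holds SARM1 off. Because NMNAT2 protein is lost quickly when supply from the cell body stops, and because NMN itself activates SARM1, the balance between the NAD-making and the NAD-destroying arm is central to injury in these long neurons. DLK and LZK, encoded by Map3k12 and Map3k13, are kinases that carry an axon injury signal to JNK and Jun in the nucleus, and PHR1, the ubiquitin ligase encoded by Mycbp2, promotes the turnover of both NMNAT2 and DLK.

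By edgeR, with libraries scaled by TMM (trimmed mean of M-values), none of the 8 members that could be tested was called between injured and intact neurons over the 3 ages together, where 6.18% of all genes were called. DESeq2 called Nmnat2 with injury at 12 months (adjusted p = 0.0183), where the share of all genes it called was not counted. Over the ages together DESeq2 called 1548 genes, against 878 by edgeR. Scaling to spike-ins, which moved the median of all genes to 2.896 on the log2 scale, called all 8 members over the ages together. It also called 13493 of all 14212 genes there. With age, 2 members were called by edgeR in intact neurons, where 6.69% of all genes were called: between 8 and 12 months Sarm1 fell and Nmnat2 rose. Leaving out 1 library ended the call of Sarm1 in 4 of 6 cases and that of Nmnat2 in 5 of 6, and a fit of only these groups called 0 members. For this pair, sequence before the gene's start in the count table's annotation is shown, to give the start region of the members called with age. It comes from RefSeq windows on GRCm38.p6 that hold the 250 bases before 1 transcript start. The window of Nmnat2 ran past the gene's annotated start at 152954993 and is shown up to there, as 142 bases. RefSeq's own gene spans, which reach to 78497816 for Sarm1 and from 152954781 for Nmnat2, overlap the sequences shown. Capitals mark matches, on either strand, to the CRE half-site TGACG bound by CREB and ATF factors and to the GC box GGGCGG bound by Sp1.
Sarm1 (chr11:78497755-78498004, minus strand): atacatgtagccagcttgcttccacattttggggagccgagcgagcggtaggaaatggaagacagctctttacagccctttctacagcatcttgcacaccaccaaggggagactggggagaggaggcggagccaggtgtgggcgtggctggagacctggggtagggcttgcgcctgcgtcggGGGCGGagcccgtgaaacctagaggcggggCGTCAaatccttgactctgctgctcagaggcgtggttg
Nmnat2 (chr1:152954851-152954992, plus strand): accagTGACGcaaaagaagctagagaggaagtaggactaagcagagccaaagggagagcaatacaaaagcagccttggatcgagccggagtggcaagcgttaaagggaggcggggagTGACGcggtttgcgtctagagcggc
The CRE half-site was present in 17.8% of all 32851 RefSeq windows of that length and the GC box in 32.7%. In the full windows, Sarm1 had 1 match to each, and Nmnat2 had 2 CRE half-sites and no GC box. The AP-1 motif TGANTCA (6.75% of windows), the full CRE TGACGTCA (1.55%) and the E-box CACGTG (6.02%) had no match in either window. The Sarm1 window held 13 CpG dinucleotides and that of Nmnat2 held 15, against a median of 6 over all windows. Over the 8 members with a RefSeq window (10 windows, since Nmnat1 and Map3k12 have 2 starts each), 7 windows held a GC box, 3 a CRE half-site and 0 an AP-1 motif, and Map3k13 held 0 CpG. Mycbp2 was not matched. These matches describe the letters only. DNA methylation at these windows was not analysed here.

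The libraries set limits on all values. The low-input libraries held 7531967 to 19443627 endogenous counts, of which 1 feature, CT010467.1, took 29.4% to 93.8%. Intact 12-month replicates 2 and 3 kept the fewest counts outside that feature, 770328 and 1789183, against 3956440 to 11587094 in each other library. Intact 12-month replicate 2 stood apart, with 40.5% of its remaining counts from mitochondrial genes and 31 counts of Sarm1. The summed level of 6 injury markers (Atf3, Sprr1a, Gal, Npy, Sox11, Nts) was 548.1 to 3167 CPM (counts per 1e6 library counts) in the injured libraries and 3.19 to 28.3 in the intact ones, as labelled, and 8 neuronal markers summed to 5202 CPM or more in each library. Levels below are CPM scaled by TMM, with SD over 3 libraries. Nothing in the labels says that the 3 libraries came from separate animals, so p-values measure the spread between these libraries, which may be technical. In these multi-cell samples, fewer cells of a type and less RNA per cell cannot be told apart.

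**Figure D1:**
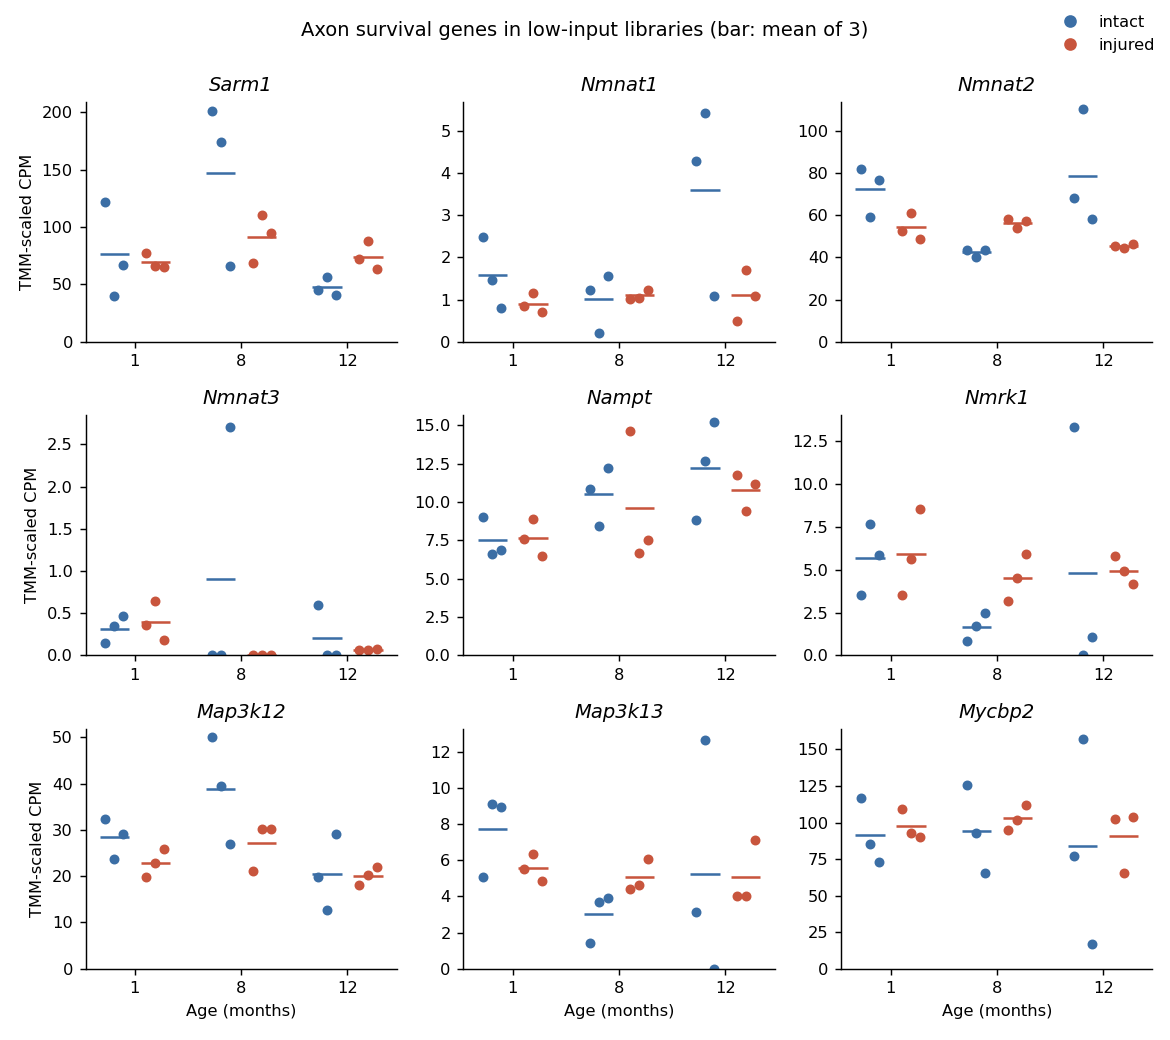
Level of each of the 9 genes (vertical axis, TMM-scaled CPM, from 0, scaled separately per gene) in each of the 18 low-input libraries by age in months, with bars at the mean of 3. Sarm1 reaches 201 and 174 CPM in intact 8-month libraries and 55.99 at most in intact 12-month ones, and Nmnat2 runs the other way.

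Per kilobase of exon, Sarm1 was the most abundant of the 9, at 14.96 ± 7.74 CPM per kb (SD, n = 18 libraries). Nmnat2 followed at 10.1 ± 3.0, and it was below Sarm1 in 13 of 18 libraries, so the order of these neighbours did not hold in every library. Mycbp2 (4.86 ± 1.52) lay below Nmnat2 in 18 of 18 libraries and above Map3k12 (2.93 ± 0.96) in 17. Nampt was at 1.92 ± 0.54 and Nmrk1 at 1.37 ± 0.95, and their order held in 12 of 18 libraries, less than their spread would separate. Map3k13 (0.787 ± 0.433) and Nmnat1 (0.509 ± 0.432) also overlapped, with the first above the second in 14 of 18. Nmnat3, at 0.0626 ± 0.127 CPM per kb, was the lowest. Among the 3 NMNAT enzymes, the axonal form was thus higher per length than the nuclear form (Nmnat1) and the mitochondrial form (Nmnat3) in this tissue.

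Sarm1 (GRCm38 chromosome 11, 78472330 to 78497754, minus strand) is the executioner of the pathway. Intact 1-month libraries had 122, 39.5 and 67.3 CPM, and injured 1-month libraries 77.2, 65.6 and 65.3 CPM. At 8 months the intact libraries had 201, 174 and 66.4 CPM and the injured ones 68.4, 111 and 94.5 CPM. At 12 months the intact libraries had 45.4, 55.99 and 41.1 CPM and the injured ones 71.8, 87.5 and 63.1 CPM. The injured libraries of all ages stayed within 63.1 to 111 CPM, while the intact ones ran from 39.5 to 201 CPM. Injured and intact overlapped at 1 and 8 months, where the intact 8-month group was split between a pair of high libraries and 1 low library, and at 12 months all injured libraries lay above all intact ones, as they did for 19.2% of all genes tested.

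Nmnat2 (chromosome 1, 152954993 to 153119261, plus strand) is the axonal NAD-making enzyme. Its intact 1-month libraries had 81.7, 59.3 and 76.6 CPM and the injured ones 52.7, 60.96 and 48.9 CPM. At 8 months the values were 43.7, 40 and 43.6 CPM intact and 58.4, 54.1 and 57.1 CPM injured. At 12 months they were 67.97, 110 and 58.02 CPM intact and 45.6, 44.2 and 46.5 CPM injured. All 8-month intact libraries lay below all other intact libraries. Among intact libraries, 12.8% of all genes tested lay lower without overlap at 8 than at 1 month. The share lying higher without overlap at 12 than at 8 months was 5.22%. Injured libraries lay above intact ones at 8 months and below them at 12 months without overlap, and the groups overlapped at 1 month. Of all genes tested, 9.39% lay higher without overlap at 8 months and 6.68% lower at 12 months. The highest value, 110 CPM, came from intact 12-month replicate 2, the library that stood apart, and rested on 61 counts.

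The other NAD-making enzymes were scarce. Nmnat1 (chromosome 4, 149467572 to 149485202, minus strand) had 317 counts over the 18 libraries and 0.216 to 5.42 CPM. Its intact 12-month libraries had 4.28, 5.42 and 1.09 CPM against 0.502, 1.70 and 1.09 CPM in the injured ones, and the groups overlapped at each age. Nmnat3 (chromosome 9, 98287435 to 98420438, plus strand) had 81 counts in all, 33 of them in intact 8-month replicate 3. It had 0 counts in each of the 3 injured 8-month libraries, which allows up to 0.0753 CPM over that group, and 1 count in each injured 12-month library. Nmnat3 did not pass the filter on low counts and was not tested.

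Of the enzymes that make NMN, Nampt (chromosome 12, 32819545 to 32853349, plus strand), which salvages nicotinamide, was the steadier. It ran from 6.45 CPM in an injured 1-month library to 15.2 CPM in an intact 12-month one, and its intact and injured means were 7.49 ± 1.32 and 7.64 ± 1.23 CPM in the youngest groups. The means of the 8-month groups were 10.5 ± 1.9 and 9.60 ± 4.37 CPM, and those of the oldest groups 12.2 ± 3.2 and 10.8 ± 1.2 CPM. The intact and injured libraries overlapped at each age. Nmrk1 (chromosome 19, 18631950 to 18652194, plus strand), phosphorylates nicotinamide riboside. Its intact 12-month libraries had 13.4, 0 and 1.09 CPM, the 0 being in replicate 2, where 3 counts would have been 5.42 CPM. At 8 months it had 0.824, 1.73 and 2.46 CPM intact and 3.15, 4.51 and 5.94 CPM injured, higher without overlap like 9.39% of all genes.

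Of the damage-relay genes, Map3k12 (chromosome 15, 102497649 to 102517064, minus strand), encoding DLK, had 49.96, 39.5 and 26.9 CPM in intact 8-month libraries and 12.6 to 32.2 CPM in the other 15. Of its 8986 exon bases, 19.25% overlap genes on the opposite strand, chiefly Pcbp2, and counting took no account of strand, so its level is uncertain to that extent. Map3k13 (chromosome 16, 21891969 to 21931877, plus strand), encoding LZK, had 1.44, 3.68 and 3.94 CPM in intact 8-month libraries against 4.44, 4.65 and 6.08 CPM in injured ones, without overlap, again beside 9.39% of all genes. It ran from 0 to 12.6 CPM over the intact 12-month libraries. Mycbp2 (chromosome 14, 103113411 to 103346814, minus strand), encoding PHR1, had 90.2 to 109 CPM in injured 1-month libraries, 95.2 to 112 at 8 months and 65.2 to 104 at 12 months. Its intact libraries ran from 65.5 to 125 CPM at 1 and 8 months and then spread to 77.3, 157 and 17.2 CPM at 12 months. For Mycbp2 and both kinases, the intact and injured libraries overlapped at 12 months.

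Whether nerve injury changes the level of these transcripts was tested first over the 3 ages together, with edgeR's quasi-likelihood test over 14212 genes and p-values adjusted by Benjamini-Hochberg. None of the 8 tested members was called at an adjusted p under 0.05, against 6.18% of all genes called (726 higher and 152 lower, or 82.7% higher, a share of 99.99% with spike-in scaling and 69.3% with DESeq2), and 0 of 8 had an unadjusted p under 0.05, against 20.3% of all genes. The members' median log2 change was -0.07, with 3 positive and 5 negative, beside a median of 0.03 over all genes. The 6 injury markers were all called higher, so the libraries did differ by injury.

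For Sarm1 the averaged injury change was -0.06 ± 0.23 (log2, SE; adjusted p = 0.933), with a 95% interval of -0.54 to 0.43. Nmnat2 had -0.26 ± 0.14 (adjusted p = 0.331), with an interval of -0.56 to 0.04. The interval of Map3k12 was -0.67 to 0.06 around -0.30 (adjusted p = 0.350). Those of Nampt (-0.09, -0.52 to 0.34, adjusted p = 0.863) and Mycbp2 (0.12, -0.47 to 0.72, adjusted p = 0.863) also spanned 0. For these 5 genes the intervals stayed within 0.72 log2 units of 0. Those of the scarcer genes were wider: Nmnat1 had -0.76 (-1.73 to 0.22, adjusted p = 0.387), Nmrk1 had 0.42 (-0.49 to 1.33, adjusted p = 0.641) and Map3k13 had 0.25 (-0.75 to 1.24, adjusted p = 0.827). A miss of the threshold does not show that the levels were alike. For Nmrk1, 1 library decided the outcome: without intact 12-month replicate 1, which held 13.4 CPM, its change was 1.33 (adjusted p = 0.0376).

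**Figure D2:**
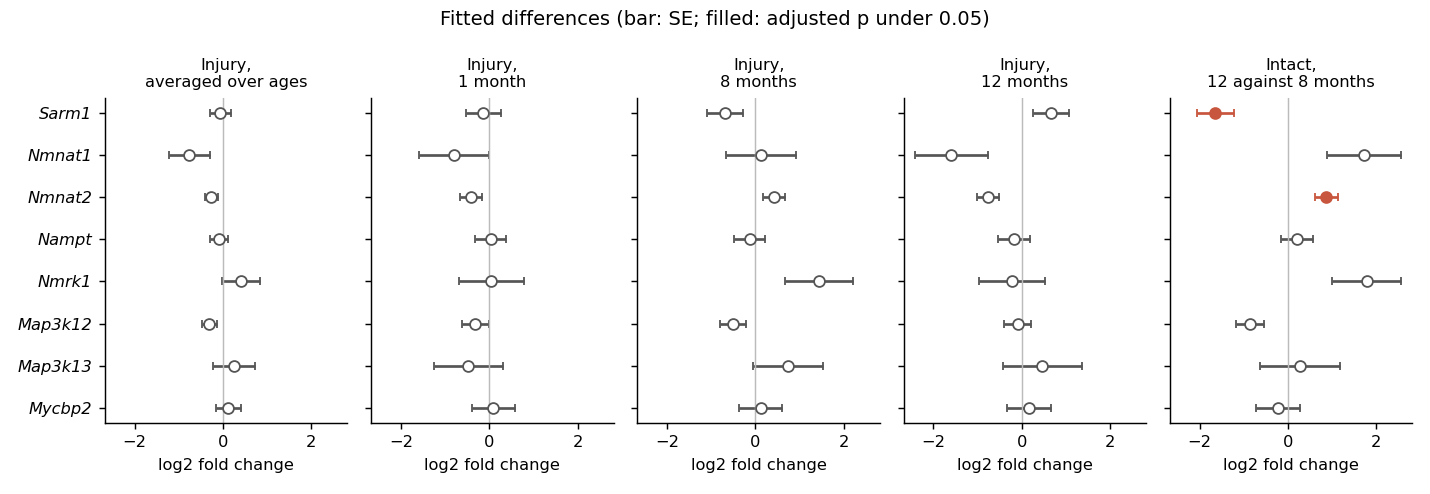
Fitted log2 fold change (horizontal axis) with SE for the 8 tested members, in the injury comparison averaged over ages and at 1, 8 and 12 months, and between 12 and 8 months in intact neurons. Open points did not pass an adjusted p of 0.05, and only Sarm1 (-1.65) and Nmnat2 (0.87) in the last panel did.

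Within single ages, 0 of 8 members were called at 1 month (0.232% of all genes called), at 8 months (0.957%) or at 12 months (2.99%). An unadjusted p under 0.05 was held by 0, 0 and 1 of 8 members at these ages, against 4.5%, 12.2% and 18.6% of all genes. The member with the smallest unadjusted p at 1 month was Nmnat2, at -0.42 ± 0.25 (adjusted p = 1). With the replicate number as a block, since same-numbered libraries of that age deviated together, no member was called at 1 month either. At 8 months the smallest p was that of Nmrk1, with 1.43 ± 0.77 (adjusted p = 0.508). At 12 months it was that of Nmnat2, with -0.77 ± 0.25 (unadjusted p = 0.00707, adjusted p = 0.108), and DESeq2 gave -0.79 with an adjusted p of 0.0183 for it. The genes that DESeq2 called at that age were not counted. The adjusted p of Nmnat2 in the injury by age interaction was 0.438 (0.167 to 0.751 with 1 library left out), and 0 of 8 members and 0% of all genes were called there by edgeR. At an unadjusted p under 0.05 the interaction held 1161 of 14212 genes (8.17%), Nmnat2 among them at 0.0109, the only member. So the opposite placing of injured Nmnat2 libraries at 8 and 12 months was not called as a difference between ages.

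The effect of age was asked separately in intact and in injured neurons. In intact neurons between 8 and 12 months, 2 of the 8 members were called, where 6.69% of all genes were called (394 higher and 557 lower at 12 months). Sarm1 fell from 147 ± 71 to 47.5 ± 7.7 CPM, a log2 change of -1.65 ± 0.41 (adjusted p = 0.0267). Nmnat2 rose from 42.4 ± 2.1 to 78.7 ± 27.7 CPM, a log2 change of 0.87 ± 0.25 (adjusted p = 0.0478). For both genes all 3 libraries of one age lay beyond all 3 of the other, as did 9.19% of all genes in the direction of Sarm1 (lower at 12 months) and 5.22% in that of Nmnat2 (higher). The next members by p were Map3k12 (-0.86 ± 0.31, adjusted p = 0.0973) and Nmrk1 (1.78 ± 0.79, adjusted p = 0.168), which were not called. With the called pair they made 4 of 8 members at an unadjusted p under 0.05, against 25.3% of all genes.

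Both calls sat near the threshold. The call of Sarm1 was lost without intact 12-month replicate 1 (adjusted p = 0.0629) or 3 (0.0732), or without intact 8-month replicate 1 (0.0697) or 2 (0.0768). That of Nmnat2 was lost without intact 12-month replicate 1 (0.0517) or 2 (0.0576), or without intact 8-month replicate 1 (0.0793), 2 (0.116) or 3 (0.0653). Without intact 12-month replicate 2, the library that stood apart, Sarm1 stood at -1.76 (adjusted p = 0.0208) and Nmnat2 at 0.57. Over all alternatives the adjusted p ran from 0.00280 to 0.552 for Sarm1 and from 0.00494 to 0.649 for Nmnat2. Spike-in scaling moved the median change of all genes from -0.02 to -2.17 in this comparison. Under it Nmnat2 stood at -1.52 (adjusted p = 0.351), above that median, and Sarm1 at -4.05 (adjusted p = 0.0552), below it. The summed level of 7 Schwann cell markers also differed between these groups, 444.9 to 869.7 CPM at 8 months and 205.4 to 399.2 at 12 months, and that of 7 satellite glia markers was 95.7 to 530.4 and 45.97 to 756.8 CPM. The share of counts on CT010467.1 was 65.7% to 68.2% and 64.2% to 93.8%. The part of these in the result was not tested.

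In the other intact comparisons no member was called. Between 1 and 8 months (0.922% of all genes called) the smallest p was that of Nmnat2, at -0.77 ± 0.25 (adjusted p = 0.137), and DESeq2 gave an adjusted p of 0.0383. The percentage is that of edgeR, and the genes that DESeq2 called there were not counted. By edgeR, 3 of 8 members had an unadjusted p under 0.05 there, against 16.2% of all genes. Besides Nmnat2 they were Sarm1, at 0.95 ± 0.40 (adjusted p = 0.247), and Nmrk1, at -1.76 ± 0.77 (adjusted p = 0.268). The Sarm1 libraries of these 2 ages overlapped. Between 1 and 12 months (0.246% called) the smallest p was that of Nampt, at 0.69 ± 0.37 (adjusted p = 0.516). No unadjusted p of a member was under 0.05 there, against 10.7% of all genes. In injured neurons 0 of 8 members were called between 1 and 8 months (0.225% called), 1 and 12 months (0.113%) or 8 and 12 months (0.0633%). The member with the smallest p in these was Sarm1 (0.39 ± 0.40), Nampt (0.49 ± 0.35) and Map3k12 (-0.43 ± 0.30), each with adjusted p = 1. At an unadjusted p under 0.05, 0 of 8 members passed in each of the 3 injured comparisons, where 4.99%, 3.86% and 4.29% of all genes did. These age comparisons share libraries with one another, so they are not independent.

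Because Sarm1 and Nmnat2 stand for opposite arms of the pathway, their counts were also set against each other within each library. The ratio is one of counts, not of levels per length (5781 and 5629 exon bases), and is compared between libraries only. It needs no scaling between libraries. It was chosen after the values were seen. In intact neurons there were 0.669, 1.502 and 1.14 Nmnat2 counts per Sarm1 count at 1 month. The 8-month intact libraries had 0.217, 0.230 and 0.657, and the 12-month ones 1.498, 1.97 and 1.41. In injured neurons there were 0.683, 0.930 and 0.748 at 1 month. The 8-month injured libraries had 0.854, 0.489 and 0.604, and the 12-month ones 0.635, 0.506 and 0.737. The injured libraries stayed within 0.489 to 0.930, inside the wider intact range of 0.217 to 1.97. In log2 units the injured libraries had SDs of 0.229, 0.406 and 0.273 at the 3 ages and the intact ones 0.593, 0.898 and 0.255.

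**Figure D3:**
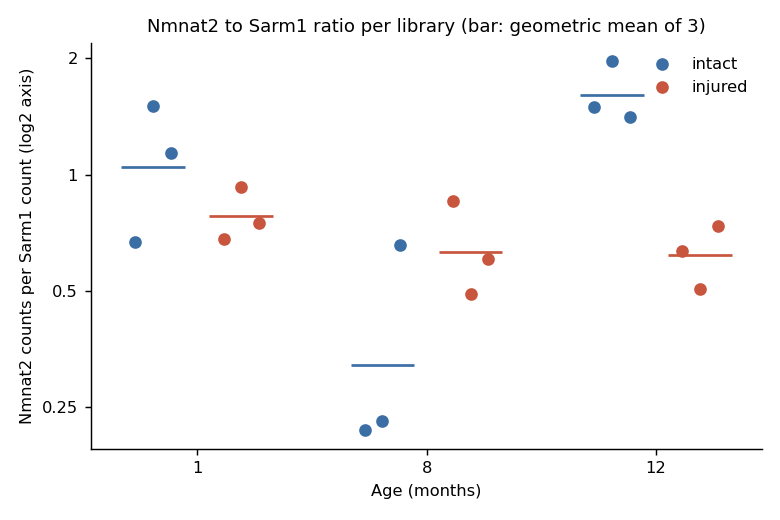
Nmnat2 counts per Sarm1 count (vertical axis, log2 scale) in each low-input library by age in months, with bars at the geometric mean of 3. The intact libraries lie lowest at 8 months (0.217 to 0.657) and highest at 12 months (1.41 to 1.97), and the injured ones lie between 0.489 and 0.930 at all ages.

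No difference of the ratio with injury was called over the 3 ages together, with a log2 difference of -0.27 (two-sided exact permutation of the condition within ages, p = 0.422, 8000 arrangements; adjusted p = 0.457 over 13 comparisons). At 12 months it was 0.384 of the intact value in injured neurons, and in intact neurons it was 5.02 times as high at 12 as at 8 months. For both, the exact permutation p was 0.1, the smallest that 3 against 3 libraries allow (adjusted p = 0.26). The log2 difference with injury was 0.98 at 8 months (exact permutation p = 0.3, adjusted p = 0.433) and -1.38 at 12 months. The change between these, -2.36, had an exact permutation p of 0.015 (400 arrangements) and an adjusted p of 0.195, so it did not pass the adjustment.

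The other genes of the pathway were read from 4 lists in the averaged injury comparison, with 6.18% of all genes called as the background. Of 9 listed NAD synthesis and carrier genes, 7 were tested and 1 was called, higher: Pnp, a purine nucleoside phosphorylase that can split nicotinamide riboside, rose from 3.90 ± 2.64 to 10.4 ± 2.5 CPM (log2 1.37 ± 0.31, adjusted p = 0.0126, n = 9 libraries each). With a replicate block its adjusted p was 0.0623. Of 11 NAD-consuming genes (the sirtuins, the PARPs, Cd38 and Bst1), 10 were tested and 0 called by edgeR, with 3 at an unadjusted p under 0.05. The medians of these lists were 0.14 and 0.03, beside 0.03 over all genes.

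Of 13 DLK and JNK pathway genes, all tested, 1 was called: Jun, the transcription factor at the end of the pathway, rose from 61.7 ± 37.6 to 141 ± 45 CPM (log2 1.21 ± 0.34, adjusted p = 0.0419). Its call was lost in 16 of 25 alternatives, 15 of them with 1 library left out, at log2 1.09 to 1.28. The kinases and scaffolds between DLK and Jun (Map2k4, Map2k7, Mapk8, Mapk9, Mapk10 and the JIP genes) were not called. The median of the list was -0.13.

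Of 12 axon survival and breakdown genes, all tested, 2 were called, both higher. Among them Stmn2, a growth-associated microtubule regulator with a short-lived protein like that of NMNAT2, rose from 1078 ± 381 to 2012 ± 488 CPM (log2 0.89 ± 0.22, adjusted p = 0.0227). Its call was lost in 4 of 25 alternatives, among them the replicate block (adjusted p = 0.105). Fbxo45 and Skp1a, the partners of PHR1, were not called. At 12 months, where 2.99% of genes were called, Bcl2l2, an anti-apoptotic Bcl-2 relative, fell by 1.503 (SE 0.34, adjusted p = 0.0288). It was named after its values were seen. Satellite glia markers, summed, were higher in injured libraries at 1 month (1299 to 2040 against 97.3 to 623.5 CPM) and overlapped at 12 months. Their part in these results was not tested.

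Over the 18 libraries, the members did not move as 1 block. The highest correlation of log2 CPM was between Map3k13 and Mycbp2 (Pearson r = 0.80), then Nmnat1 with Nmnat2 (0.68) and Sarm1 with Map3k12 (0.66), while Sarm1 with Nmnat2 was at -0.36. These points share library depth and scaling, and intact 12-month replicate 2 is among them. Among genes of at least 10 CPM, the patterns most like that of Sarm1 were those of Mapk8ip2, which encodes the JNK scaffold JIP2 (r = 0.90), Numbl (0.87) and Sec14l1 (0.86). For Nmnat2 they were Etfb (0.89), Bola2 (0.89) and Dtnb (0.88). For Nmnat1 they were Urm1 (0.91), Msrb1 (0.88) and Idnk (0.82), and for Nampt Pitpnb (0.73), Metap1 (0.72) and Brd9 (0.71). Nmrk1 had Tmem41b (0.94), Ranbp1 (0.93) and Bysl (0.92). For Map3k12 they were Sphk2 (0.91), Ccdc97 (0.90) and Lrrc14 (0.87), for Map3k13 Tanc2 (0.92), Lmf1 (0.91) and Slc4a4 (0.90), and for Mycbp2 Cacna1a (0.94), Tfip11 (0.94) and Ubr4 (0.94).

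Single neurons showed how the members are spread from cell to cell. Cells name no animal, so each of the 4 groups counts as 1 sample, no test was made, and intervals cover counting error only, since reads without molecular identifiers are not independent molecules. The pooled injury markers were 309 and 5049 CPM in intact and injured 1-month cells and 79.5 and 188.5 CPM at 1 year. The 1-year cells labelled injured thus lay below the intact 1-month cells, and below the 2372 to 3167 CPM of the injured 12-month low-input libraries, whose CPM, unlike those of cells, include CT010467.1 in the total. The markers separate the conditions by much less at 1 year than at 1 month, and "injured" at 1 year below is the label. Of 68 cells with counts, 61 had Mycbp2, 58 Map3k12, 57 Sarm1, 57 Nmnat2, 51 Nampt, 48 Nmrk1, 40 Map3k13 and 35 Nmnat1. Nmnat3 had a count in 7 of 68 cells (10.3%, exact 95% interval 4.24% to 20.1%). Its counts came from few cells: 96.6% of those in intact and 91.6% of those in injured 1-year cells were from 1 cell each. In the 18 intact 1-month cells it had 0 counts, which allows up to 0.0826 CPM. Of the 55 cells with at least 100000 counts outside CT010467.1, 52 had Mycbp2 and 51 each had Sarm1, Nmnat2 and Map3k12. The cells of that depth without Mycbp2 were 1-month cells with 94.3% to 99.2% of counts from spike-ins and 561 to 1141 genes detected. Among all cells with counts, 1 intact 1-month cell had only 109 genes detected. These shares thus include near-empty cells, and a cell without a count need not be a neuron without the transcript.

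Sarm1 was higher in the pooled 1-year cells than in the pooled 1-month cells. Pooled over cells, it stood at 102 CPM (99.2 to 106) in intact and 149 (145 to 152) in injured cells at 1 month, and at 338.0 (333 to 343) and 339.9 (336 to 344) CPM at 1 year. Weighting cells equally, the mean was 112 and 107 CPM at 1 month and 346 and 662 CPM at 1 year, so the near-equal pooled values at 1 year and the higher injured value at 1 month did not hold for that mean. The median cell had 105 and 103 CPM at 1 month and 359 and 298 CPM at 1 year. The highest cell had 325 and 302 CPM at 1 month, and 744 CPM intact and 3779 CPM injured at 1 year. The 2 ages therefore stood apart by more than the counting error, but with no replicate, and the low-input libraries of intact neurons had less Sarm1 at 12 than at 1 month (log2 -0.70 ± 0.41, adjusted p = 0.564, not called). Spike-ins were a median of 24.9% and 21.3% of a cell's counts at 1 month and 0.0002% and 0% at 1 year, so spike-in use differed with age and the 2 cannot be told apart in the cells.

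Nmnat2 varied less between the groups of cells. It stood at 117 CPM (113 to 121) in intact and 83.7 (81.2 to 86.2) in injured 1-month cells, and at 94.99 (92.5 to 97.6) and 77.8 (75.97 to 79.6) at 1 year. The median cell had 101 and 66.6 CPM at 1 month and 106 and 61.5 CPM at 1 year. The injured value was the lower of the pair at both ages, with ranges over cells that overlapped widely (0 to 206 against 0 to 139 CPM at 1 month, and 12.1 to 149 against 0 to 203 CPM at 1 year). Among cells with at least 20 counts of the pair, Nmnat2 made up a median of 48.3% of the pair's counts in 11 intact and 38.5% in 16 injured cells at 1 month, and 27.9% in 8 intact and 16.3% in 17 injured cells at 1 year. The cells within a group ran from 14.7% to 85.8% in intact and from 15.3% to 78.6% in injured 1-month cells. At 1 year they ran from 1.61% to 98.02% in intact and from 0% to 100% in injured cells. In the cells at 98.02% and 100%, mitochondrial genes gave 43.3% and 35.5% of counts outside CT010467.1, and Sarm1 had 4 and 0 counts.

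**Figure D4:**
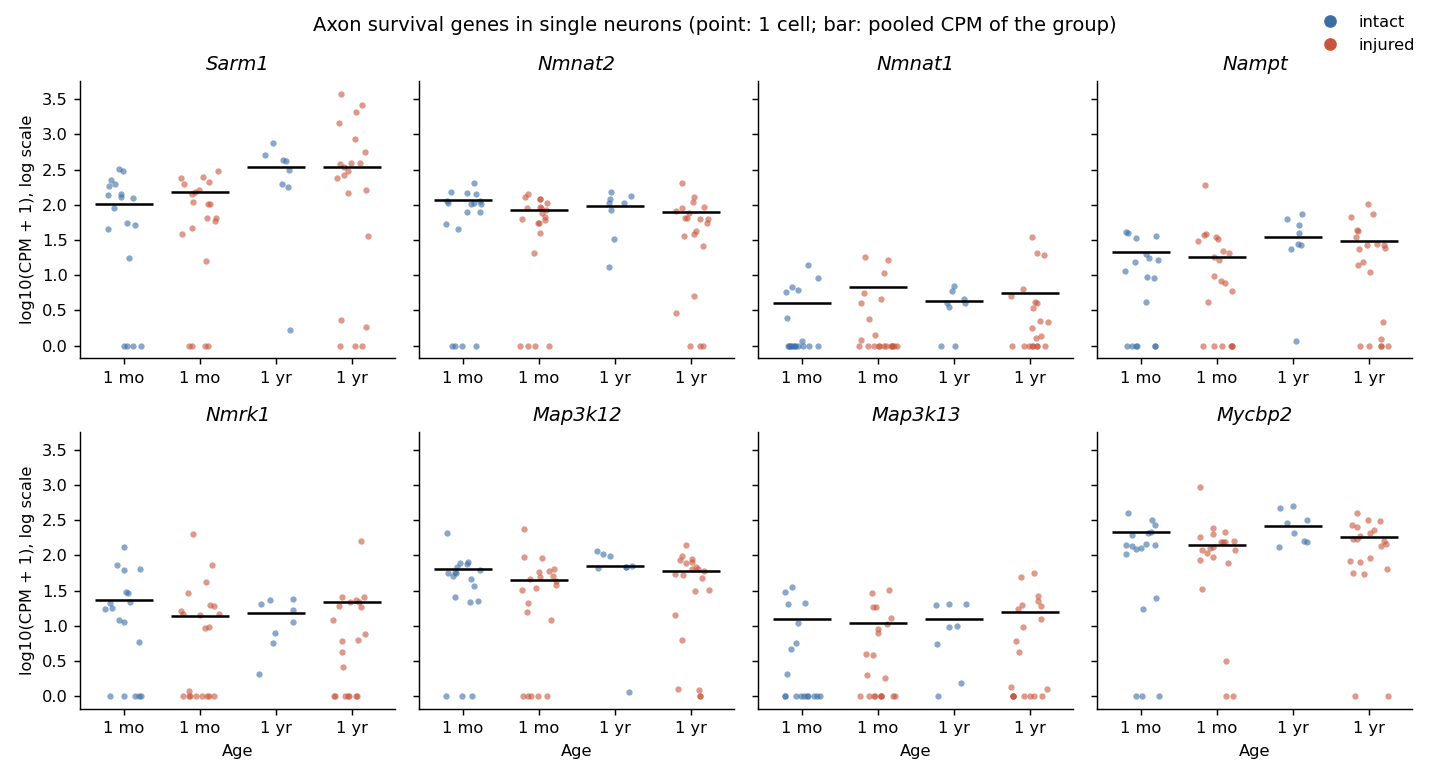
Level of 8 members (vertical axis, log10 of CPM + 1) in each single neuron, by condition and age (1 month, 1 year), with a bar at the pooled CPM of the group. Sarm1 bars lie at 102 and 149 CPM at 1 month and at 338.0 and 339.9 at 1 year, and Nmnat2 bars lie between 77.8 and 117.

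For the remaining members in cells, pooled Mycbp2 was 210 CPM in intact and 139 in injured 1-month cells and 263 and 182 at 1 year. Map3k12 had 63.1 and 44.1 CPM at 1 month and 69.3 and 59.4 at 1 year. Both were lower in the injured group at each age, as pooled values without a test. For Mycbp2 at 1 month this depended on the weighting of cells. The median cell had 135.85 CPM in intact and 126.56 CPM in injured 1-month cells, much closer than the pooled values. With cells weighted equally, the injured 1-month mean was the higher, and the highest cell was an injured one (927.56 against 394.6 CPM). Nampt had 20.4 and 17.3 CPM at 1 month and 33.8 and 29.3 at 1 year, and Nmrk1 had 22.3 and 12.7, then 14 and 20.9 CPM, with the injured value lower at 1 month and higher at 1 year. Map3k13 had 11.3 and 9.88, then 11.5 and 14.8 CPM, and Nmnat1 had 2.97 and 5.705, then 3.29 and 4.52 CPM. A single cell gave 52.7% of the Map3k13 counts in intact 1-month cells and 44.1% of the Nmnat1 counts in injured ones, so these pooled values rest on few cells.

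At 1 month the cell names give the ganglion. In injured cells, pooled Sarm1 was 178 CPM in 13 cells from L4 and 121 CPM in 8 from L5, with median cells at 64.4 and 103 CPM, so the pooled and the median value differed in order. Pooled Nmnat2 was 85.4 and 82 CPM in the same cells, with median cells further apart, at 82.2 CPM in L4 and 57.3 CPM in L5.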

How the data were processed

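RNA was measured in 18 low-input libraries and 69 single cells, which carry 87 names over 136 RNA samples; the 94 methylation samples were not analysed here. The authors deposited raw fragment counts per gene. Per the file headers these were made with featureCounts in paired mode over exons of GENCODE vM16 (GRCm38) with ERCC spike-ins, unstranded and without multi-mapping reads; STAR and Trim Galore are named in the submitters' processing notes. The deposited lengths in bp (unit: other), per the file headers, gave CPM per kb. Repeat runs of 1 name were already merged in the deposited counts.

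The 18 low-input libraries entered 1 model in edgeR 4.0.16 (R 4.3.3) after removal of spike-ins, with filterByExpr (14212 genes, 8 of 9 members), TMM, 1 mean per group, robust quasi-likelihood F tests with 12 residual degrees of freedom, and Benjamini-Hochberg adjustment over all genes in each contrast. The common biological coefficient of variation was 0.543. The steps were tested on simulated data. Alternatives were RLE or ERCC scaling, removal of CT010467.1, DESeq2 1.42.0, limma-voom (limma 3.58.1), no filter, only the groups compared, a replicate block and leaving out each library. Same-numbered injured and intact libraries were checked for pairing over 3649 genes: their deviations correlated at 0.116, 0.333 and 0.317 at 1 month, and not above 0.039 at 8 and 12 months. At 1 month the best differently numbered library correlated at -0.147 to 0.0751. At 8 months the best differently numbered ones reached 0.25 to 0.495, and same-numbered ones went down to -0.413. Correlations of this size therefore do not establish pairs at any age, and the main fit used no pairs. The replicate block took same-numbered libraries as pairs at every age in the injury comparisons, at 8 and 12 months too. In the age comparisons it took equal numbers as blocks across ages.

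Cell CPM used counts outside CT010467.1, with exact Poisson and Clopper-Pearson 95% intervals. Intervals and the floor of 3 counts cover counting error only. Members and lists were chosen with earlier results of these data known. All 9 members were described, with test values for every tested member in the averaged injury comparison and, elsewhere, for called members or that with the smallest p. Listed pathway genes were named where called, apart from 1 that is not reported here, and the 3 genes with the highest correlation were named per member. Promoter windows are from RefSeq (GRCm38.p6); 8 of 9 members matched. Figures were drawn with matplotlib 3.10.9.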

Additional observations from a re-analysis of the deposited data

Results flagged for a closer look

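The difference between injured and intact neurons in the ratio of Nmnat2 to Sarm1 counts had opposite signs at 8 and 12 months. Neither difference was called at its own age (two-sided exact permutation p = 0.3 and 0.1, adjusted p = 0.433 and 0.26). At 8 months the injured and intact libraries overlapped. The log2 difference between injured and intact neurons was 0.98 at 8 months and -1.38 at 12 months, and the difference between these was -2.359. An exact permutation of the condition within each of the 2 ages gave p = 0.015 (two-sided, 400 arrangements, smallest possible 0.005), which also reads an effect at either age alone. Adjusted over the 13 comparisons of the ratio it was 0.195, and the ratio was chosen after the values were seen. With each of the 12 libraries left out in turn the value stayed between -2.877 and -2.08, with p of 0.005 to 0.025. The move lay in the intact libraries, from 0.217 to 0.657 at 8 months to 1.41 to 1.97 at 12 months, while the injured ones were 0.489 to 0.854 and 0.506 to 0.737.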

How the results depend on the processing

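The number of members called stayed within 1.5 times that reported in 159 of 176 alternative values, and the exceptions follow. Most of these values repeat a count of 0, the number reported in every comparison but intact neurons between 8 and 12 months. In that comparison 5 of 6 fits with 1 library left out called fewer members. With ERCC scaling, the median of all genes in the averaged injury comparison moved to 2.896 (log2). There 13493 of 14212 genes and 8 members were called. With injury at 12 months 7 members were called, and 7 between 1 and 12 months in intact neurons. The medians of all genes in those comparisons moved to 5.362 and -4.314, and the genes called in them were not counted. Between 8 and 12 months in intact neurons 0 members were called. In the averaged comparison Sarm1 stood at 2.959. Nmnat1 at 2.396, Nmnat2 at 2.717, Nampt at 2.827 and Map3k12 at 2.633 stood below its median of 2.896. Under the same scaling Nmnat2 had 0.9864 with injury at 1 month, 4.763 at 12 months and -1.516 in intact neurons between 8 and 12 months; Nampt had -3.642 between 1 and 12 months in intact neurons, and in injured neurons Sarm1 had -0.9106 between 1 and 8 months and Map3k12 0.6073 between 8 and 12 months. DESeq2 called 1 member (Nmnat2) with injury at 12 months and 1 (Nmnat2) between 1 and 8 months in intact neurons. The genes it called in those comparisons were not counted. In the averaged injury comparison DESeq2 called 1548 genes and a fit without an expression filter 1722, in place of 878.

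Between 8 and 12 months in intact neurons, where 2 members were called, removal of CT010467.1, limma-voom, no filter and the replicate block each left 1 (Sarm1), and a fit of only the groups compared left 0. With 1 library left out the count ran from 0 to 2 there, from 0 to 1 for the averaged injury comparison (Nmrk1, without intact 12-month replicate 1), and was 0 in the other 9 comparisons; genes called with injury ran from 561 to 1462, the highest without intact 12-month replicate 2. The replicate block called 329 genes in place of 878 with injury and changed no member's call other than that of Nmnat2. The averaged Sarm1 change, near 0, was 0.06216 with limma-voom, 0.02688 with the replicate block, and 0.005568 to 0.1322 without injured 8-month, intact 1-month or intact 8-month replicate 1; its range over left-out libraries was -0.1677 to 0.1322. Averaged changes with 1 library left out ran from -0.0195 to 0.605 for Map3k13 and from -0.04154 to 0.3823 for Mycbp2, each negative without intact 12-month replicate 3. The ratio of Nmnat2 to Sarm1, an addition made after seeing the data, ran from -0.3817 to -0.1016 for averaged injury with 1 library left out. In cells, the mean of per-cell CPM was 0.461 to 1.95 times the pooled value, a denominator with CT010467.1 kept gave 0.489 to 0.587 times, and leaving out cells under 100000 counts 0.994 to 1.01 times. Intact 12-month replicate 2 held 61 counts of Nmnat2 and 31 of Sarm1, which limits the precision of its values.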

Other observations

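A set of 4 of the 21 injured 1-year cells had more than 1000 CPM of Sarm1, and no cell of the other 3 groups did. They had 1423, 2041, 2600 and 3779 CPM, from 184, 3, 487 and 1176 counts among 129290, 1470, 187292 and 311165 counts outside CT010467.1, so each was far below the median of 3571600 for that group. The same cells held 0, 0, 7 and 20 counts of Nmnat2. The value of 2041 CPM rests on 3 counts. Among cells with at least 100000 counts outside CT010467.1, 3 of 18 injured 1-year cells had over 1000 CPM, and 3 of these 18 had under 10 CPM of Sarm1. Under 10 CPM were also 1 of 8 intact 1-year, 2 of 12 intact 1-month and 1 of 17 injured 1-month cells of that depth. Those 1-month cells had 94.3% to 99.2% of counts from spike-ins, 561 to 1141 genes detected and no count of Sarm1. In the 1-year cells under 10 CPM, mitochondrial genes gave 23.9% to 43.3% of counts outside CT010467.1. Low Sarm1 in these cells cannot be told apart from poor libraries.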
